A study of Mus musculus with 6 samples.

Results

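The COPII coat genes were examined on arrays of primary mouse astrocytes after transfection with microRNA precursors of the miR-29 family. The set held 10 genes, Sec23a, Sec23b, Sec24a, Sec24b, Sec24c, Sec24d, Sec31a, Sec13, Sar1a and Sar1b. It was chosen by gene function, with earlier results of these data known. It took all non-control probes whose RefSeq accession maps to one of these symbols. This gave 10 of the 32225 genes and transcripts on the array and 15 of its 41174 non-control probes, and all 15 probes, for all 10 genes, were well above background on each of the 6 arrays. The miR-29 group and the control group had 3 arrays each. Both came from a purchased C57BL/6 culture of fetal cerebral cortex (embryonic day 18), transfected 3 weeks after plating at 80 nM and harvested 48 h later. The miR-29 group received the human precursors of all 3 family members (miR-29a, b and c) as a mixture, and the control group a negative control precursor. The labels call the arrays extraction replicates and name no separate cultures. All p-values therefore reflect the spread among these samples alone, and that spread may be technical.

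COPII is the protein coat that buds transport vesicles from the endoplasmic reticulum and so carries newly made secreted and membrane proteins towards the Golgi. The small GTPases Sar1a and Sar1b, once loaded with GTP, insert into the membrane and recruit the inner coat, a pair of one Sec23 and one Sec24 protein. Sec23 stimulates the GTPase and Sec24 binds the cargo, and Sec13 with Sec31 then assembles the outer cage. Cells that secrete collagen depend on this step: in humans, mutations of SEC23A and of SEC24D cause skeletal disorders with retained procollagen, and in zebrafish loss of either gene disturbs cartilage.

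The transfected family is defined by its seed, bases 2 to 8, which pair with target messenger RNAs. The mature mouse sequences of RefSeq (build GRCm38.p6) are shown because all 3 forms share it, with the seed in capitals. The miR-29a form is encoded at chr6:31062673-31062694 (minus strand), the miR-29b form at chr1:195037091-195037113 (plus strand) and chr6:31063025-31063047 (minus strand), and the miR-29c form at chr1:195037600-195037621 (plus strand). Target sites of the seed in the COPII transcripts were not examined here.
mmu-miR-29a-3p: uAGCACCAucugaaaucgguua
mmu-miR-29b-3p: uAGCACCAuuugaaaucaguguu
mmu-miR-29c-3p: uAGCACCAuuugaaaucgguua

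On the 6 arrays, 62% to 66.8% of probes passed the scanner's test against background, the 75th percentile signal was 474 to 626, and 0 spots were saturated. Levels below are the processed signal of a probe divided by the 75th percentile of its array. They compare arrays, and levels of different probes are not compared. All 3 miR-29 arrays shared slide 1 with the first control replicate, while the other control arrays were on slide 2. The comparison of the groups is therefore partly confounded with slide, and a value within slide 1 rests on 1 control array. All 10 astrocyte markers were detected, of which 6 were higher and 1 (Gja1) lower, and their summed level was 71.9 to 76.6 in the miR-29 arrays and 46.2 to 47.3 in the control arrays. A sum follows its brightest probes, and members of every list moved in both directions. The 8 fibroblast and mural markers summed to 449.2 to 485 in the miR-29 arrays and 369.5 to 409 in the control arrays, mostly from Acta2 and Cnn1, with 4 higher and 2 lower (S100a4 at -1.22 and Pdgfrb at -0.68). The 3 microglia markers detected summed to 3.3 to 3.56 in the miR-29 arrays and 4.43 to 5.03 in the control arrays, mostly from Tmem119 (-0.44). Csf1r was also lower by its brightest probe (-1.40, and -0.73 within slide 1) and higher by the other (0.36), and P2ry12 was higher (0.52). Both genes were dim. Log2 levels ran from -4.97 to -2.71 for the brightest Csf1r probe and from -4.98 to -3.96 for P2ry12. The 4 endothelial markers detected summed to 1.87 to 2.00 in the miR-29 arrays and 2.2 to 2.61 in the control arrays, mostly from Flt1 (-0.37). Kdr (0.27) and Vwf (0.83) were called higher and Cdh5 (0.20) did not pass. Vwf was well above background on 3 miR-29 arrays but only 2 control arrays. It was kept only through the group where it is higher, so its direction is not read. Aif1, Cx3cr1, Itgam and Ptprc of microglia, Pecam1, Cldn5 and Tek of endothelium, Mog of oligodendrocytes and Snap25 of neurons did not pass the filter on dim probes. The summed levels of the remaining neuronal markers (2 lower, 3 higher of 7) and oligodendrocyte markers (3 lower, 4 higher of 7) overlapped between the groups. The part of these shifts in the results below was not tested, and in such bulk samples fewer cells of a type and less RNA per cell cannot be told apart.

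Sec24d and Sec23a were lower after miR-29, by 2.39-fold and 1.86-fold, and the other 8 COPII genes lay within 0.2 of 0 on the log2 scale by their brightest probes. Of the 10 genes, 3 were lower (Sec24d, Sec23a and, narrowly, Sec24c), 1 was higher (Sec24a, narrowly) and 6 did not pass the test, which was limma across all probes kept, two-sided, with a Benjamini-Hochberg adjusted p under 0.05. Over all 19741 genes and transcripts tested, 23.6% were lower, 34.1% higher and 57.7% past the threshold in either direction, so the number of members called is not a result about the coat. The members' median log2 fold change was -0.084, against 0.057 over all genes. Within slide 1 it was 0.0027, against 0.077 over all genes. The groups did not overlap for 9 of the 10 genes, against 65.9% of all genes. Counted by probe, 5 of the 15 were lower and 2 higher, against 23.5% and 34% of all 26428 probes kept (57.5% in either direction), and 14 did not overlap, against 65.8%. With scaling to the detected spike-in controls in place of the 75th percentile, 10149 probes were lower and 3955 higher, against 6205 and 8993, and 5 COPII genes were lower and 0 higher. Sec24d alone was at least 2-fold lower, as were 3.76% of all genes.

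**Figure D1:**
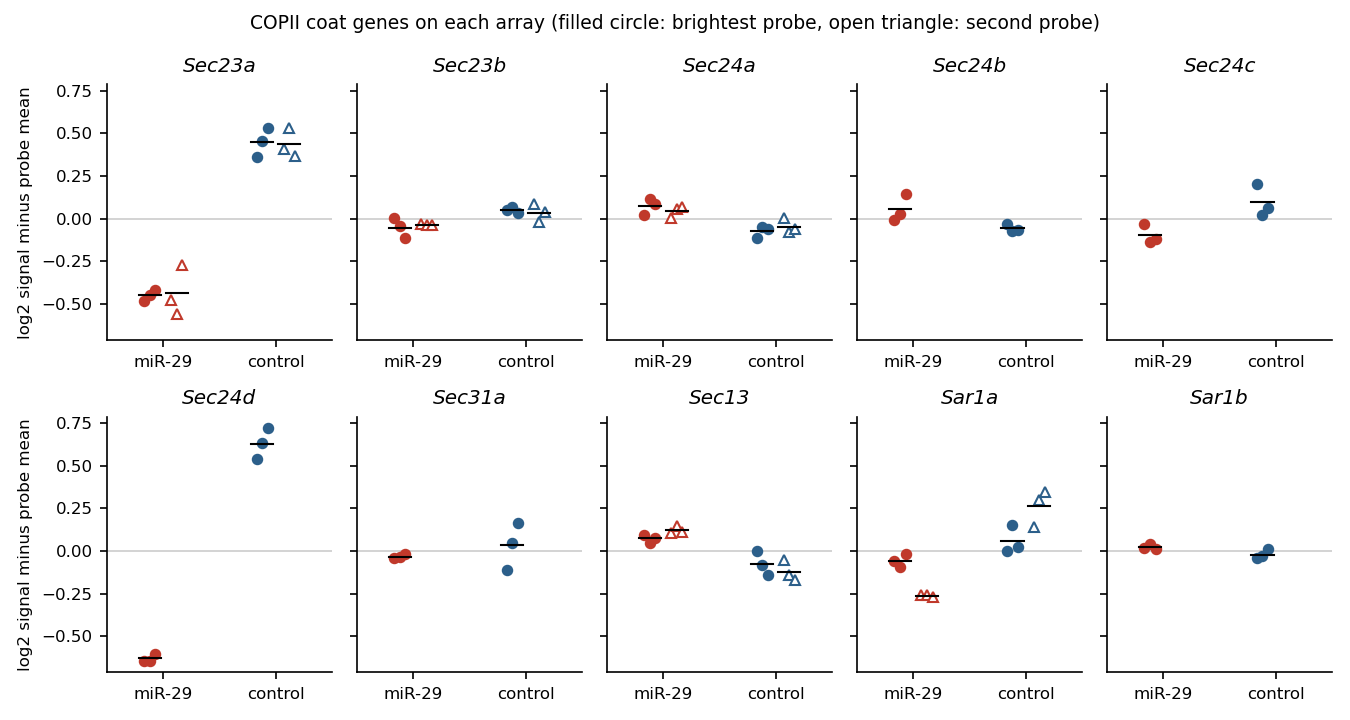
Log2 signal of each COPII probe on each array, minus the mean of that probe over the 6 arrays, with the 3 miR-29 arrays in red at the left and the 3 control arrays in blue at the right of each panel. Filled circles are the brightest probe of a gene, open triangles the other probe, and lines the group means. Sec24d and both probes of Sec23a separate widely, while the remaining genes stay close to 0 apart from the dimmer probe of Sar1a.

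The inner coat gene Sec24d, a cargo adaptor whose human counterpart is mutated in a brittle bone syndrome, had levels of 1.66, 1.66 and 1.71 on the miR-29 arrays, against 3.76, 4.01 and 4.26 on the control arrays. Each miR-29 array was below every control array, and the miR-29 arrays, all on slide 1, were almost alike. Its log2 fold change was -1.26 (SE 0.0614, limma adjusted p = 4.86e-05, n = 3 per group), and only 2.29% of all genes had a change as low or lower. Within slide 1 the log2 difference was -1.16. Over 19 alternative settings its value lay between -1.49 and -1.16.

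Sec23a, the GTPase-activating subunit that pairs with Sec24, had levels of 0.74, 0.758 and 0.774 on the miR-29 arrays, against 1.33, 1.42 and 1.49 on the control arrays. The groups were again well apart. Its log2 fold change was -0.90 (SE 0.0606, limma adjusted p = 0.000113), lower than in all but 5.3% of genes, and -0.81 within slide 1. The dimmer of its probes had levels of 0.0768, 0.0725 and 0.0885 on the miR-29 arrays, against 0.142, 0.154 and 0.138 on the control arrays. That probe gave -0.87 (SE 0.0902, limma adjusted p = 0.000497), so both probes of Sec23a were lower. Over the alternative settings the brighter probe lay between -1.14 and -0.79 and the dimmer between -1.11 and -0.46. The probes differed most with normexp background correction, at -0.79 for the brighter and -0.46 for the dimmer.

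Its paralog Sec23b, whose human counterpart is mutated in an inherited anaemia of red cell precursors, had levels of 4.79, 4.63 and 4.42 on the miR-29 arrays, against 4.95, 5.02 and 4.9 on the control arrays. The highest miR-29 array was just below the lowest control array. The log2 fold change was -0.10 (SE 0.0513, limma adjusted p = 0.129), and the other probe gave -0.073 (SE 0.0499, adjusted p = 0.248). The brighter probe passed as lower with quantile normalization (-0.17) and with scaling to the spike-in controls (-0.34 and -0.29). The spike-in settings moved the median of all genes as well, by -0.239 with the detected types and -0.189 with all types. Spike-in scaling shifts every gene by the same amount, so it cannot alter a change relative to that median. Relative to it, Sec23b changed by -0.16 and Sec24d by -1.31.

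The remaining Sec24 paralogs, which recognise partly different export signals on cargo, moved little. Sec24c had levels of 6.29, 5.84 and 5.91 on the miR-29 arrays, against 7.4, 6.53 and 6.7 on the control arrays. The groups did not overlap, with control replicate 1 farthest up. The log2 fold change of -0.19 (SE 0.0672) was just past the threshold (limma adjusted p = 0.049), and the call was lost when any single array was left out (adjusted p = 0.0566 to 0.139), with median centring (adjusted p = 0.18) and with no filter (adjusted p = 0.11). Within slide 1 the difference was -0.30.

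Sec24a had levels of 1.02, 1.08 and 1.06 on the miR-29 arrays, against 0.928, 0.971 and 0.962 on the control arrays. The miR-29 arrays were the higher ones without overlap, by 0.15 on the log2 scale (SE 0.051, limma adjusted p = 0.0491; 0.18 within slide 1). This call was also lost without any single array (adjusted p = 0.0694 to 0.146), and the value was -0.093 and -0.044 with spike-in scaling. The other probe of Sec24a gave 0.091 (SE 0.05, adjusted p = 0.161). Sec24b, the closest relative of Sec24a, had levels of 3.44, 3.52 and 3.81 on the miR-29 arrays, against 3.38, 3.28 and 3.3 on the control arrays. Its log2 fold change was 0.11 (SE 0.0576, limma adjusted p = 0.144; 0.084 within slide 1).

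The outer cage genes did not pass the test by their brightest probes. Sec31a, the elongated cage subunit, had levels of 13.2, 13.3 and 13.4 on the miR-29 arrays, against 12.6, 14.0 and 15.2 on the control arrays. The miR-29 arrays lay inside the control range, with a log2 fold change of -0.065 (SE 0.0776, limma adjusted p = 0.494) that was 0.078 within slide 1. Sec13, which also serves in the nuclear pore, had levels of 9.28, 8.98 and 9.17 on the miR-29 arrays, against 8.7, 8.2 and 7.88 on the control arrays. The arrays did not overlap, and the log2 fold change was 0.15 (SE 0.0557, limma adjusted p = 0.0617; 0.072 within slide 1). It passed as higher without control replicate 1 (0.19, adjusted p = 0.019), with the trended robust variance model (adjusted p = 0.0284) and with the mean of both probes (0.20, adjusted p = 0.0194). The dimmer probe of Sec13 passed with 0.24 (SE 0.0527, limma adjusted p = 0.0089; 0.18 within slide 1), but did not with a slide block (adjusted p = 0.0555) or with spike-in scaling, where it was 0.0048 and 0.054.

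Of the GTPases that start coat assembly, Sar1a gave different answers with its probes. The brighter probe had levels of 35.4, 34.6 and 36.5 on the miR-29 arrays, against 36.9, 40.9 and 37.4 on the control arrays, with a log2 fold change of -0.11 (SE 0.0601, limma adjusted p = 0.149). It passed as lower with quantile normalization (-0.20) and spike-in scaling (-0.35 and -0.30), and so did the mean of both probes (-0.32, adjusted p = 0.00421). It was -0.057 within slide 1 and with a slide block, and -0.068 without control replicate 2. Relative to the median of all genes it was -0.17, a value that spike-in scaling cannot alter. The dimmer probe had levels of 3.85, 3.85 and 3.83 on the miR-29 arrays, against 5.08, 5.67 and 5.86 on the control arrays, and fell by 0.52 (SE 0.0662, limma adjusted p = 0.00107; -0.40 within slide 1). Both probes carry the same RefSeq accession, and where they lie in the transcript is not given in the files used here. Sar1b, mutated in a human disorder of chylomicron export from gut cells, had levels of 6.45, 6.56 and 6.43 on the miR-29 arrays, against 6.2, 6.24 and 6.42 on the control arrays. Its log2 fold change was 0.043 (SE 0.0455, limma adjusted p = 0.446), and 0.063 within slide 1.

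**Figure D2:**
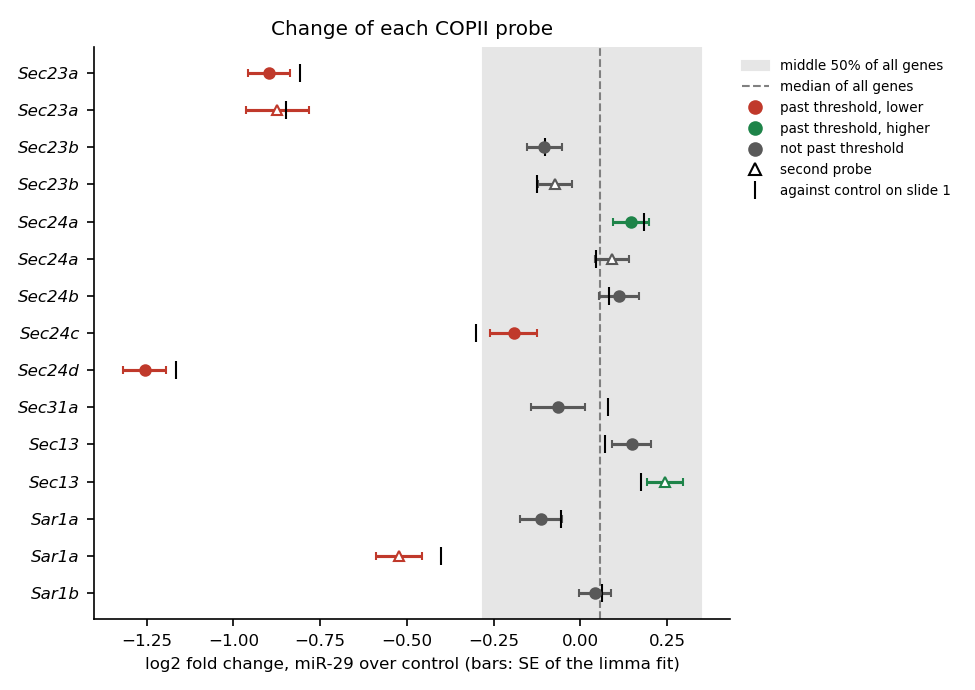
Log2 fold change, miR-29 over control, of each of the 15 COPII probes from the limma fit (bars are SE), with the difference against the single control array of slide 1 as a vertical tick. The shaded band runs from -0.28 to 0.35, the middle 50% of all genes, and the dashed line is their median of 0.057. Sec24d, both Sec23a probes and the dimmer Sar1a probe lie outside the band.

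Whether paralogs changed unequally was asked with the log2 ratio of 2 paralogs on the same array, which does not depend on how arrays are scaled. The level of such a ratio has no meaning between probes, and its change does. Sec23a over Sec23b was -2.69, -2.61 and -2.51 on the miR-29 arrays, against -1.90, -1.82 and -1.71 on the control arrays. The ratio was lower on every miR-29 array, by 0.79 on average, where the SD was 0.0894 in the miR-29 group and 0.0925 in the control group. Sec24d over Sec24c was -1.92, -1.81 and -1.79 on the miR-29 arrays, against -0.98, -0.71 and -0.65 on the control arrays. The groups were apart here too, with a change of -1.06.

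The other pairs changed less. Sar1a over Sar1b, by the brightest probes, was 2.46, 2.40 and 2.50 on the miR-29 arrays, against 2.57, 2.71 and 2.54 on the control arrays, a change of -0.16 without overlap that was -0.36 with the mean of both Sar1a probes. Sec24a over Sec24b was -1.76, -1.70 and -1.84 on the miR-29 arrays, against -1.87, -1.76 and -1.78 on the control arrays, so its groups overlapped and its change was 0.035. In the exact permutation test, two-sided, the first 3 pairs named had p = 0.1, the smallest that 3 arrays against 3 allow, and Sec24a over Sec24b had p = 0.5. Adjusted over the 4 pairs, these were 0.133 and 0.5 in the exact test, so no pair could reach 0.05 in this design. Within slide 1 the changes of Sec23a over Sec23b, Sec24d over Sec24c, Sar1a over Sar1b and Sec24a over Sec24b were -0.71, -0.87, -0.12 and 0.10.

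**Figure D3:**
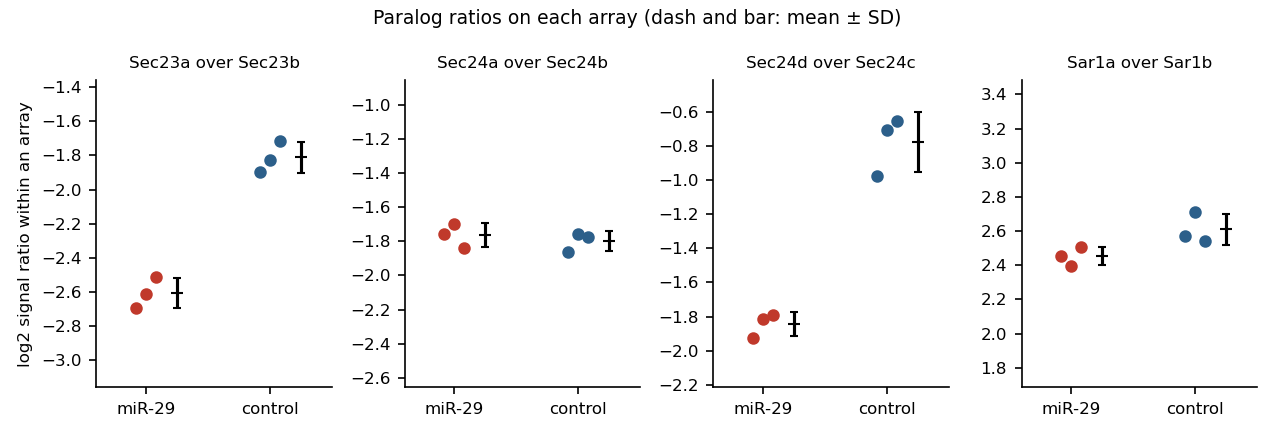
Log2 ratio of the brightest probes of 2 paralogs on each array (points), with the mean and SD of each group of 3 arrays beside them, miR-29 at the left and control at the right. Each panel spans the same range of log2 units, and the ratios with Sec23a and Sec24d are lower on every miR-29 array, by 0.79 and 1.06.

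The promoters of the members were searched after Sec24d and Sec23a had both been called lower, as were 23.6% of all genes. Whether the 2 genes share a regulator was not tested. All 10 genes were found in the RefSeq promoter table (GRCm38.p6; 250 bases before to 50 after an annotated start), with 12 windows among them. The search covered both strands for TGACGTGG, a sequence known to bind the stress-response factors XBP1 and ATF6 and members of the CREB3L family, one of which, Creb3l2, drives Sec23a in mouse cartilage. It also covered ACGTGGCA, which overlaps the first motif by 6 letters. The motifs were chosen after the sequences and the fold changes had been seen. Among the members, TGACGTGG was found only in the windows of Sec24d and Sec23a, and it is present in 0.676% of the 32851 windows of all genes. ACGTGGCA was found in 6 of the 12 member windows, each of a different member, and in 0.612% of all windows. The palindrome TGACGTCA and the endoplasmic reticulum stress response element (CCAAT, 9 bases of any kind and CCACG) were found in no member window, and in 1.79% and 0.119% of all windows. A match is a description of letters and not of binding.

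The 6 matches are given on the strand of their gene in windows of 30 bases, with the matching letters in capitals. In Sec24d and Sec23a the 10 capitals join both motifs. Sec24c, and the members with the match on the opposite strand (Sec13, Sar1a and Sec31a), hold ACGTGGCA without the whole of TGACGTGG. The windows are chr3:123267460-123267489 (plus strand) for Sec24d, chr12:59011992-59012021 (minus strand) for Sec23a, chr14:20674235-20674264 (plus strand) for Sec24c, chr6:113740667-113740696 (minus strand) for Sec13, chr10:61680115-61680144 (plus strand) for Sar1a and chr5:100416205-100416234 (minus strand) for Sec31a.
Sec24d: cccgggcgccTGACGTGGCActagcaaccc
Sec23a: tcctccccttTGACGTGGCAgaggcggcac
Sec24c: gcctaaggccgACGTGGCAgaaggagtggc
Sec13: gcgttttgagcTGCCACGTccgaggccgtg
Sar1a: ctgacagacgcTGCCACGTcttaccccgct
Sec31a: ggggctgcggcTGCCACGTtggagcggagc

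The match begins 26 bases before the annotated start in Sec24d and at base 7 after it in Sec23a. It begins 75, 4 and 159 bases before the start in Sec24c, Sec13 and Sar1a, and at base 12 after it in Sec31a. Beside these sequences stand log2 fold changes of -1.26 for Sec24d and -0.90 for Sec23a, and of -0.19, 0.15, -0.11 and -0.065 for Sec24c, Sec13, Sar1a and Sec31a by their brightest probes. The 250 bases before the start of Sec24d, the member with the lowest fold change (chr3:123267246-123267495, plus strand), are shown with the same letters in capitals.
Sec24d promoter: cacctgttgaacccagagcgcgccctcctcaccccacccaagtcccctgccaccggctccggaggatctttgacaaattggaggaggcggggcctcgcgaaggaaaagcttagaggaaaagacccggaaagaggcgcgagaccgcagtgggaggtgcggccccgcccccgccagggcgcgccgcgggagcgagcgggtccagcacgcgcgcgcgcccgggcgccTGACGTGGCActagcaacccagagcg

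Genes that act beside the coat at endoplasmic reticulum exit sites moved in both directions. The list held 15 tested genes: 2 fell, 4 rose and 9 missed the threshold. Their median log2 fold change was 0.005, against 0.057 over all genes, of which 23.6% were lower and 34.1% higher. With detected spike-in types 8 were lower and 1 higher, where 10149 of all 26428 probes kept were lower and 3955 higher. In the main setting Preb was called higher by its brightest probe (0.22) and lower by the other (-0.76). Sec16a was called lower (-0.22), while its other probe did not pass (0.11). Sec16b, a scaffold of exit sites, had levels of 0.212, 0.215 and 0.207 on the miR-29 arrays, against 0.357, 0.343 and 0.38 on the control arrays, and fell by 0.77 (SE 0.0568, limma adjusted p = 0.000152; -0.60 with its other probe). Tfg, which clusters COPII carriers, was higher by 0.49 (SE 0.0529, limma adjusted p = 0.000577). Mia3, the TANGO1 receptor that loads procollagen into COPII carriers, was higher by 0.31 (SE 0.0478, limma adjusted p = 0.00222). Its other probes did not pass (0.15 and -0.085), and the call was lost with the mean of all its probes (0.13, adjusted p = 0.0595) and with spike-in scaling (0.076 and 0.13).

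Creb3l2, the transcription factor named above, had levels of 2.37, 1.66 and 2.18 on the miR-29 arrays, against 1.48, 1.48 and 1.34 on the control arrays. The miR-29 arrays were higher but uneven, with a log2 fold change of 0.52 (SE 0.138, limma adjusted p = 0.0193). The call was lost with a slide block (0.47, adjusted p = 0.124), with spike-in scaling (adjusted p = 0.0945 and 0.0662) and when the first or the third miR-29 array or the third control array was left out (adjusted p = 0.0528, 0.0614 and 0.0625). Creb3l1, of the same family and list, did not pass (0.13, limma adjusted p = 0.196). Xbp1 and Atf6 were not among the listed genes.

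Among 22 receptors that sort cargo between the endoplasmic reticulum and the Golgi, 5 fell, 5 rose and 12 missed the threshold (median -0.08). Kdelr3, which returns escaped resident proteins to the endoplasmic reticulum, had levels of 0.949, 0.942 and 0.867 on the miR-29 arrays, against 3.0, 2.43 and 2.54 on the control arrays, and fell by 1.53 (SE 0.0923, limma adjusted p = 8.13e-05). Tmed5, a p24 family cargo receptor, had levels of 5.15, 5.22 and 5.57 on the miR-29 arrays, against 2.01, 1.79 and 1.93 on the control arrays, and was higher by 1.48 (SE 0.0649, limma adjusted p = 4.03e-05). Both genes were separated without overlap. Ergic2 and the lectin gene Lman2l were higher by 0.52 and 0.46. With spike-in scaling of the detected types, 13 of the 22 were lower and 3 higher. Under that scaling 10149 of all 26428 probes kept were lower and 3955 higher.

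The next list held 22 genes of tethers, SNAREs and related proteins. It is named for proteins that dock and fuse carriers with their target membrane, which not every member does itself. Of these 22 genes, 8 fell, 7 rose and 7 missed the threshold (median 0.0012). Sec22c had levels of 0.811, 0.845 and 0.797 on the miR-29 arrays, against 2.15, 2.19 and 2.17 on the control arrays, and fell by 1.41 (SE 0.0481, limma adjusted p = 2.66e-05), with -0.36 and -0.52 for its other probes. The SNARE gene Ykt6 fell by 1.01, with -0.39 and -0.44 for its other probes. Gosr2 fell by 0.49, with -0.90 and 0.16 for its other probes, the last of which did not pass. Use1, a SNARE of the return route, was higher by 0.55. With detected spike-in types 12 were lower and 1 higher, where 10149 of all 26428 probes kept were lower and 3955 higher.

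The other vesicle coats also held genes of both directions. In the COPI coat, which carries proteins back from the Golgi, 6 of 15 genes fell, 2 rose and 7 missed the threshold (median -0.066). The zeta subunit gene Copz2 fell by 0.91 (SE 0.0493, limma adjusted p = 6.22e-05), with levels of 1.19, 1.16 and 1.12 on the miR-29 arrays, against 2.18, 2.14 and 2.19 on the control arrays. The ARF exchange factor gene Gbf1 fell by 0.77, but its other probe gave 0.62 without passing, and the mean of both gave -0.072 (limma adjusted p = 0.532). With detected spike-in types 9 COPI genes were lower and 1 higher. The gamma subunit gene Copg2 was higher by 0.48, and the GTPase-activating gene Arfgap3 fell by 0.39. Of 11 genes of the clathrin and AP-1 coat, which acts after the Golgi, 4 fell, 5 rose and 2 missed the threshold (median 0.12), and with either spike-in scaling 4 were lower and 1 higher. Among these counts, only those of the main setting stand beside 23.6% lower and 34.1% higher over all genes. Those with detected spike-in types stand beside 10149 lower and 3955 higher probes out of 26428 kept. With all types these background counts were 8979 and 4235. The AP-1 genes Ap1b1 and Ap1g1 fell by 0.52 and 0.47, and Ap1s1 was higher by 0.43, a call lost with spike-in scaling (0.19 and 0.24). Ap1s2 was higher by 0.82 with its brightest probe and passed as lower with the other, at -0.45.

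**Figure D4:**
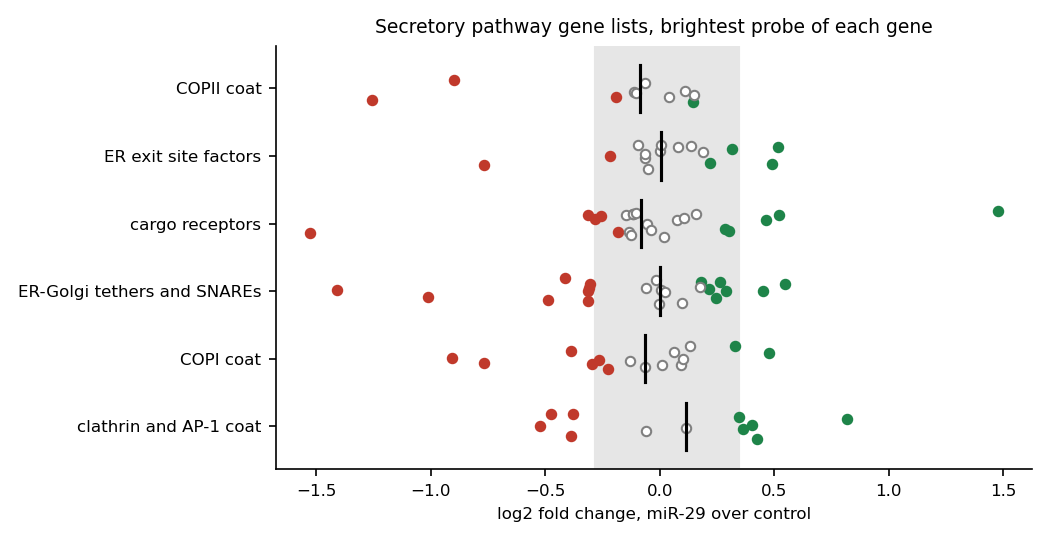
Log2 fold change, miR-29 over control, of the brightest probe of each gene in the COPII coat and 5 other lists of the secretory pathway. Red points were past the threshold and lower, green past it and higher, open points not past it, black lines are the medians and the band the middle 50% of all genes. In the COPII row 2 points, Sec24d and Sec23a, lie left of the band and 8 inside it.

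Across the settings tried, the direction and call of Sec24d and Sec23a were kept in every refit with a test, among them scaling to the spike-ins, normexp background correction and each array left out in turn (largest adjusted p = 0.00107 and 0.00127). The signs of Sec24a, Sec24b, Sec13 and Sar1b turned with spike-in scaling, that of Sar1b also with quantile normalization, and that of Sec31a within slide 1 and without control replicate 3.

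**Figure D5:**
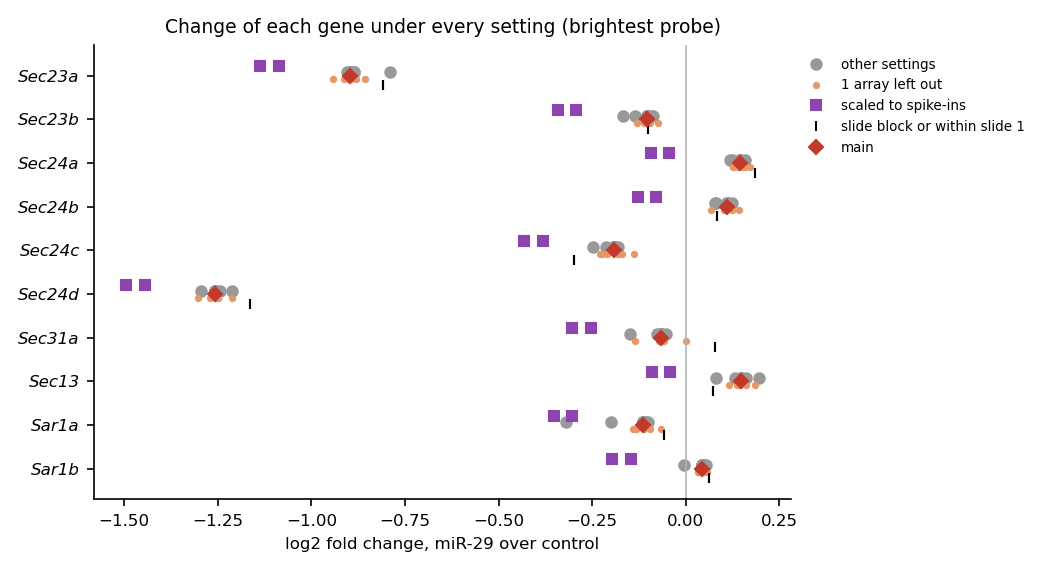
Log2 fold change, miR-29 over control, of the brightest probe of each COPII gene under the main setting (red diamonds) and the alternatives, with spike-in scaling as purple squares, slide settings as ticks and arrays left out in turn as small orange points. Sec24d stays between -1.49 and -1.16 and Sec23a between -1.14 and -0.79, while the points of Sec24a, Sec24b, Sec13, Sar1b and Sec31a fall on both sides of 0.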

How the data were processed

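Per the file headers, Agilent Feature Extraction 10.7.3.1 (10.7 in the submitters' processing notes) turned each spot's intensity into a background-subtracted processed signal, with quality flags in other deposited columns. The authors' value table is this intensity times 1 constant per array. There were 0 columns of other samples. After removal of control and outlier spots, repeated spots of a probe were averaged. Values are log2 of the processed signal (floor 1) minus the log2 of the array's 75th percentile. Probes well above background on all 3 arrays of a group were kept (26428 of 41174). Unversioned RefSeq accessions were matched to the GRCm38.p6 gene table, which named 26925 probes and left 14249 unnamed. Each gene is represented by its brightest kept probe. All kept probes were fitted together with lmFit and eBayes (limma 3.58.1, R 4.3.3), after the procedure was tested on simulated data. In the fit 5 kept probes, none of a member, lacked a value on an array. The members and lists were chosen with earlier results of these data known. Genes outside the coat are the up to 4 with the largest change past the threshold in each list, and Trappc2 was not matched to a probe. Normexp used the median spot signal with an offset of 50. The number of arrays limits the precision.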

Additional observations from a re-analysis of the deposited data

How the results depend on the processing

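The count of COPII genes called lower was 3 and became 5 with quantile normalization and with both spike-in scalings, 4 with the mean of all kept probes, 2 with median centring and with no filter, and 2 to 2 with 1 array left out. The count called higher was 1. It became 0 with median centring, no filter, normexp, either spike-in scaling, the slide as a block and the replicate block, 2 with the trended robust variance model, and 0 to 1 with 1 array left out. The members' median log2 fold change of -0.084 became -0.16 with quantile normalization, -0.32 with the detected spike-in types and -0.27 with all types. The median of all genes, 0.057 in the main setting, was 0.032, -0.18 and -0.13 in these settings. The members' median turned to 0.0027 with the slide as a block and within slide 1, where that of all genes was 0.077. It lay between -0.12 and -0.055 with 1 array left out. Reversed signs were found with detected and all spike-in types for Sec24a (-0.093 and -0.044, and -0.15 and -0.098 with its other probe), Sec24b (-0.13 and -0.079), Sec13 (-0.091 and -0.042) and Sar1b (-0.20 and -0.15). Sar1b was -0.0047 with quantile normalization. Sec31a was 0.078 with the slide as a block and within slide 1, and lay between -0.14 and 0.0006 with 1 array left out, turning sign without control replicate 3. Of all probes, 6205 were lower and 8993 higher. With detected spike-in types 10149 were lower and 3955 higher, and with all types 8979 and 4235. The spike-in scalings shift all genes by 1 constant per array, and the cause of the other changes was not tested. Left out in turn, the arrays gave 5053 to 7557 lower and 7236 to 9687 higher probes. The 4 paralog ratios kept their sign under all 9 settings tried. Same-numbered arrays of the groups had correlated deviations (0.143, 0.099 and 0.271), each highest with its own number, but 1 pair lay under 0.1, so the numbers were not taken as pairs. With the replicate block 6242 probes were lower and 9126 higher, and Sec24a lost its call (0.15, limma adjusted p = 0.0597).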

Other observations

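The promoter motifs can be set beside the fold changes of all genes that hold them, as a description with no test, since the motifs were chosen with the members' values known. Of 10942 tested genes with a promoter window, 24.9% were lower and 37.1% higher after miR-29, with a median log2 fold change of 0.065. Of the 111 tested genes with TGACGTGG, which include Sec24d and Sec23a, 39 (35.1%) were lower and 25 (22.5%) higher (median -0.0051). Of the 105 with ACGTGGCA, which include 6 COPII genes, 32 (30.5%) were lower and 25 (23.8%) higher (median -0.065). Of the 373 with TGACGTCA, 93 (24.9%) were lower and 131 (35.1%) higher (median 0.074). The endoplasmic reticulum stress response element was held by 20 tested genes, none of them a COPII gene. Of these, 12 (60%) were lower and 4 (20%) higher, and their median was -0.38. A role of any of these motifs in the changes was not tested.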
